A study of Rattus norvegicus with 12 samples.

Results

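The interferon response genes are the genes that cells switch on after interferon or viral nucleic acid. A list of 37 of them was set against the gene names of the array files, and 33 were found; Irf8, Isg15, Sp100 and Xaf1 were not found under those names. All 33 were well above background on all 12 arrays, among 29622 genes tested. They were measured in L4-6 dorsal root ganglia, the clusters of sensory neuron cell bodies that serve the sciatic nerve, of male Sprague-Dawley rats. A segment of the left sciatic nerve had been resected at the mid-thigh under anaesthesia in every rat, and the ganglia were collected 0.5, 3, 6 or 9 h later. Each of the 4 times has 6 of the 24 rats, by the labels, and 3 of the 12 arrays. Which rats' RNA lay on which array is not in the labels, so the p-values rest on how these arrays differ from each other, which may be technical in part. The labels give no uninjured rats, and the earliest time, 0.5 h, was itself taken after surgery.

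Type I interferons (Ifna and Ifnb1) act through the receptor Ifnar1 and Ifnar2 and the kinases Jak1 and Tyk2, and factors that include Stat2 and Irf9 then bind the interferon-stimulated response element. Interferon gamma acts through its own receptor and through Jak1 and Jak2 on genes with the gamma-activated site, with Irf1 among the first induced. The response arms cells against viruses, raises antigen presentation and is held back by inhibitors such as Usp18 and the Socs proteins, and sensory ganglia are a tissue in which it is known from herpesvirus infection.

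The promoters of the genes on which the results turn are shown first, because the factors that carry the response bind such sites. RefSeq (GRCr8) promoter windows of 300 bases matched 25 of the 33 genes, and 18 held at least 1 of the motifs searched. The core of the interferon-stimulated response element, GAAANNGAA, lay in 15 of them on either strand, and 9.71% of all 33465 promoter windows of that length held it. The gamma-activated site, TTCNNNGAA, which reads the same on both strands, lay in 7, and 8.87% of all windows held it. A match is a description of the letters, not a measured binding site. The 250 bases before the start are printed 5′ to 3′ on the gene's strand, with matches to either motif in capitals. Irf1, Cxcl10 and B2m are the genes that passed a test between times, and Irf7, Oas1a and Ifit3 are shown for the spread between arrays.
Irf1: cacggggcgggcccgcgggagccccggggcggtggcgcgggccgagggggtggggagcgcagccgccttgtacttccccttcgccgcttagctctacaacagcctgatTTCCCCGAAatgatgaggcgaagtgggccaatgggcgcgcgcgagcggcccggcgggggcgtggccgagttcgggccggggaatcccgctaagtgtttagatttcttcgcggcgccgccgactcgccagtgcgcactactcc
Cxcl10: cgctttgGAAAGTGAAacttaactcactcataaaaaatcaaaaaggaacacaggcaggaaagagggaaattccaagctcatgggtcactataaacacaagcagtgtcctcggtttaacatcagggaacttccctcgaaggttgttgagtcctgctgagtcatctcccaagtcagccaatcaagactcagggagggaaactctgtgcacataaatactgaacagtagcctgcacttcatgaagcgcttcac
B2m: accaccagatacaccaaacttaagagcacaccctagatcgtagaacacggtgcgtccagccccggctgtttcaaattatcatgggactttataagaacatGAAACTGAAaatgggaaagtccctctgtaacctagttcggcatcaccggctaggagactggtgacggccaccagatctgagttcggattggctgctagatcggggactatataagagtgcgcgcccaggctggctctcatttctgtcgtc
Irf7: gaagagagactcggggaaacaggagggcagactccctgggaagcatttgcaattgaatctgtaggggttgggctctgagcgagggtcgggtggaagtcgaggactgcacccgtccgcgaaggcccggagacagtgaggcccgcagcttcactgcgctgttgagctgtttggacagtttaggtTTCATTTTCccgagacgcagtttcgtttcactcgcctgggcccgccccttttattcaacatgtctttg
Oas1a: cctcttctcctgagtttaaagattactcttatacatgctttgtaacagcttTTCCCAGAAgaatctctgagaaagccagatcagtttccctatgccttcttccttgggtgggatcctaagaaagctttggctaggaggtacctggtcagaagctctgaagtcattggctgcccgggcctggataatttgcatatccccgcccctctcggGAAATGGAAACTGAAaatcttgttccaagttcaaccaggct
Ifit3: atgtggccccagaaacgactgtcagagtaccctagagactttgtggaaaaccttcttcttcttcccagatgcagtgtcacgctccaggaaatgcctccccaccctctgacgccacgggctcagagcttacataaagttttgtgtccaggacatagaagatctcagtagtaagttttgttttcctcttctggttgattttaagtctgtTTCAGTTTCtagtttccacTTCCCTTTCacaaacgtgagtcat

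The Irf1 window (chr10:38417685-38417934, plus strand) held the gamma-activated site at -142 to -134 from the start and no response element core. Those of Cxcl10 (chr14:15988816-15989065, plus strand) and B2m (chr3:129549080-129549329, plus strand) each held 1 response element core, at -243 to -235 and at -150 to -142. Irf7 (chr1:205800024-205800273, minus strand) held 1 on the opposite strand at -68 to -60. Oas1a (chr12:41330216-41330465, plus strand) held 2 overlapping cores that start at -41 and -35, and a gamma-activated site at -199 to -191. Ifit3 (chr1:241527076-241527325, plus strand) held 2 cores on the opposite strand, at -43 to -35 and at -24 to -16.

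Each array held 45018 spots, of which 1639 were controls and none was saturated. Probes well above background made up 82.3 to 85.3% of the arrays of 3, 6 and 9 h, against 63.2 to 67.5% of those of 0.5 h. Local background, by its median, ran from 37 to 45 on the later arrays, against 64 to 85.5 at 0.5 h (intensity units). Levels over all genes correlated between arrays of 1 time at r = 0.983 to 0.996, taken across genes, which are not independent replicates. The arrays of 0.5, 3 and 9 h each lay on 1 slide of their own, so slide and time cannot be told apart; the 6 h arrays lay on 2 slides, replicate 1 apart from replicates 2 and 3, and the 3 h and 6 h slides were scanned on the same day. Each array detected all 14 markers of sensory neurons. In whole ganglia, fewer cells of a type and less RNA per cell cannot be told apart.

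Few of the interferon response genes passed the test between the 4 times. Of the 33, 1 was called at 3 h relative to 0.5 h (Cxcl10, lower), 1 at 6 h relative to 0.5 h (Irf1, higher), 1 at 9 h relative to 0.5 h (Irf1, higher) and 2 at 9 h relative to 3 h (Irf1, higher; B2m, lower), by limma with an adjusted p under 0.05. Over all genes 22.7% were called at 3 h relative to 0.5 h (9.69% higher, 13% lower), 13.4% at 6 h relative to 0.5 h (4.07% higher, 9.31% lower), 33.4% at 9 h relative to 0.5 h (22.7% higher, 10.7% lower) and 23.5% at 9 h relative to 3 h (17.7% higher, 5.87% lower). None of the 33 was called at 6 h relative to 3 h, where limma called 10.4% of all genes (5.93% higher, 4.45% lower) and 3 members had an unadjusted p under 0.05. None was called at 9 h relative to 6 h, where it called 25.1% (19.2% higher, 5.93% lower) and 0 members had an unadjusted p under 0.05. With normexp background correction 0 were called in any comparison. With the slide as a random block up to 8 were (9 h relative to 3 h). That block called 13805 of all 29622 genes in the same comparison, against 6971 without it. No slide held arrays of different times, so the block adds no support for these calls. The split of all called genes depended on the scaling. In the order of the medians given next, 42.6%, 30.4%, 68%, 57.1%, 76.4% and 75.1% of called genes were higher, against 62.5%, 60.6%, 45.7%, 65.2%, 34.9% and 33% with median scaling, and 53.5%, 55.6%, 53.4%, 63.3%, 47.2% and 49.5% with quantile scaling.

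The differences themselves were spread on both sides of 0. At 3 h relative to 0.5 h the median log2 difference of the 33 genes was 0.11 (24 positive, 9 negative), against 0.02 for all genes. At 6 h relative to 0.5 h it was -0.11 (9 positive, 24 negative), against -0.04, and at 9 h relative to 0.5 h -0.18 (11 positive, 22 negative), against 0.10. At 6 h relative to 3 h, the pair scanned on 1 day, it was -0.21 (6 positive, 27 negative), against -0.07 for all genes. These comparisons share arrays, so their medians are not separate pieces of evidence. At 9 h relative to 6 h it was -0.02 (15 positive, 18 negative), against 0.11, and at 9 h relative to 3 h -0.24 (9 positive, 24 negative), against 0.09. With median scaling the medians at 9 h were -0.30, -0.24 and -0.44 relative to 0.5, 6 and 3 h, against -0.02, -0.11 and -0.11 for all genes, and the median at 6 h relative to 0.5 h was -0.0049, against 0.07. The standard error of a difference had a median of 0.27 over the 33 genes and of 0.11 over all genes.

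**Figure D1:**
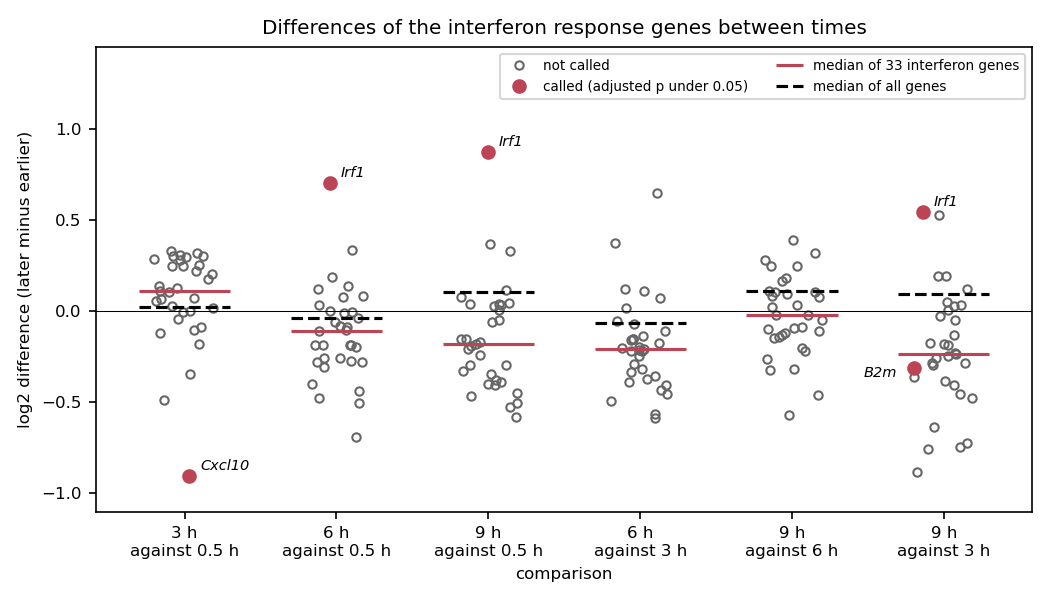
Log2 difference of each of the 33 interferon response genes in the 6 comparisons (later minus earlier time), as open circles where not called and filled circles where called; the solid line is their median and the dashed line that of all genes. Irf1 is called in 3 comparisons, and Cxcl10 and B2m in 1 each. The circles lie on both sides of 0, with more above it at 3 h relative to 0.5 h and more below it in the others.

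Among the 6 genes of signalling and transcription, Irf1 was the only one called. Irf1 is a transcription factor that interferon gamma and inflammatory cytokines induce early, and it turns on antigen presentation genes; its probe lay at chr10:39224461-39224695 (rn4). Its log2 level, relative to the array's 75th percentile, was -2.53, -2.82 and -2.67 at 0.5 h, -2.41, -2.52 and -2.10 at 3 h, -1.85, -1.88 and -2.18 at 6 h, and -1.80, -1.91 and -1.69 at 9 h. Every later array lay above every 0.5 h array, every 9 h array also lay above every 3 h array, and the 3 h and 6 h arrays overlapped.

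Irf1 rose at 9 h relative to 0.5 h by 0.87 on the log2 scale, or 1.83-fold (SE 0.13, limma adjusted p = 0.00112). It rose at 6 h relative to 0.5 h by 0.70, or 1.63-fold (SE 0.13, adjusted p = 0.00903). At 9 h relative to 3 h it rose by 0.54, or 1.46-fold (SE 0.13, adjusted p = 0.0143), a call that was lost without 3 h replicate 1 (adjusted p = 0.0531) or 3 h replicate 2 (adjusted p = 0.0543). At 3 h relative to 0.5 h the arrays also did not overlap, but the difference of 0.33 did not pass (adjusted p = 0.101), nor did the 0.38 at 6 h relative to 3 h (adjusted p = 0.102) or the 0.17 at 9 h relative to 6 h (adjusted p = 0.385). With normexp the values at 6 and 9 h relative to 0.5 h and at 9 h relative to 3 h were 0.79, 0.89 and 0.61 and did not pass (adjusted p = 0.422, 0.0923 and 0.167). With median scaling the 9 h relative to 3 h value was 0.34 (adjusted p = 0.0625), and Irf1 was also called at 3 h relative to 0.5 h (0.41, adjusted p = 0.0402).

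None of the other 5 genes of this group was called in any comparison in the main fit, with all arrays and no block. Irf7, the factor that amplifies type I interferon production, had log2 levels of 3.84, 3.65 and 3.6 at 0.5 h, 3.59, 4.14 and 4.02 at 3 h, 3.90, 3.42 and 3.22 at 6 h, and 3.98, 3.42 and 2.19 at 9 h. The spread of the 9 h arrays exceeded the whole span of the other times. With the slide as a random block Irf7 was called lower at 9 h relative to 3 h (-0.72, limma adjusted p = 0.0343). Usp18, which removes Isg15 from proteins and blocks the type I receptor, had 1.27, 0.92 and 0.67 at 0.5 h, 0.89, 1.08 and 1.22 at 3 h, 1.33, 0.58 and 0.12 at 6 h, and 1.41, 1.03 and -0.48 at 9 h, again widest at 9 h. Stat2, a transcription factor of the type I response, averaged -1.34 ± 0.25, -1.42 ± 0.30, -1.62 ± 0.20 and -1.30 ± 0.30 over 0.5, 3, 6 and 9 h (SD, n = 3 each). Irf3, the factor activated by phosphorylation rather than induced, varied least of these 5, with 4.18 ± 0.01, 4.26 ± 0.04, 4.12 ± 0.07 and 4.23 ± 0.10 (SD, n = 3 each). With median scaling Irf3 was called lower at 9 h relative to 3 h (-0.23, limma adjusted p = 0.0323). Irf9, which carries Stat2 to DNA, differed between the means of the 4 times by 0.14 at most.

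The 4 genes of antigen presentation and the chemokine gave the other calls. Cxcl10, a chemokine that draws T cells, had log2 levels of 1.05, 0.24 and 0.74 at 0.5 h, -0.28, 0.03 and -0.43 at 3 h, 0.55, 0.31 and 0.40 at 6 h, and 0.95, 0.20 and -0.25 at 9 h. All 3 h arrays lay below all 0.5 h and all 6 h arrays, while the 9 h arrays spanned nearly the whole range. Cxcl10 fell at 3 h relative to 0.5 h by 0.90 on the log2 scale (SE 0.29, limma adjusted p = 0.0496). The call rested on the threshold: it was lost with any 1 array left out except 0.5 h replicate 2, 9 h replicate 1 and 9 h replicate 3 (adjusted p = 0.0595 to 0.147 where lost). It was also lost with normexp (adjusted p = 0.0734), median scaling (adjusted p = 0.0725), the mean of probes (adjusted p = 0.0507), a common detection floor (adjusted p = 0.0757) or the compared times alone (adjusted p = 0.0527). At 6 h relative to 3 h the difference was 0.65 (adjusted p = 0.191), and it passed when those times alone were fitted.

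B2m, the light chain of MHC class I, had log2 levels of 6.33, 6.34 and 6.37 at 0.5 h, 6.31, 6.52 and 6.52 at 3 h, 6.24, 6.33 and 6.14 at 6 h, and 6.19, 6.20 and 6.01 at 9 h. With the probe used, the 9 h arrays lay below all 3 h and all 0.5 h arrays and overlapped those of 6 h. B2m fell at 9 h relative to 3 h by 0.31 on the log2 scale, to 0.805 of the 3 h level (SE 0.08, limma adjusted p = 0.0205); at 9 h relative to 0.5 h the difference of -0.21 did not pass (adjusted p = 0.0771). The call at 9 h relative to 3 h was lost without 3 h replicate 2 (adjusted p = 0.0696), 3 h replicate 3 (adjusted p = 0.0580) or 9 h replicate 3 (adjusted p = 0.0693), and with quantile scaling (-0.25, adjusted p = 0.0755) or cyclic loess scaling (-0.25, adjusted p = 0.0755). It was also lost with the mean of its probes (-0.28, adjusted p = 0.0562), normexp (-0.44, adjusted p = 0.128) or the compared times alone (adjusted p = 0.0763). With median scaling B2m was -0.52 at 9 h relative to 3 h (adjusted p = 0.00280) and was called lower at 9 h relative to 0.5 h and to 6 h as well (adjusted p = 0.0227 and 0.0226). The 3 other B2m probes differed by -0.33, -0.26 and -0.21 at 9 h relative to 3 h. At 9 h relative to 0.5 h they differed by -0.08, -0.005 and -0.02, and their 9 h arrays overlapped those of 0.5 h.

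The 2 subunits of the peptide transporter that loads MHC class I are encoded near each other on chromosome 20, with probes at chr20:4792827-4793962 (Tap1) and chr20:4770747-4770806 (Tap2, rn4). Tap2 had log2 levels of -0.47, -0.69 and -0.40 at 0.5 h, -0.47, -0.16 and 0.03 at 3 h, -0.01, -0.38 and -0.16 at 6 h, and -0.23, 0.06 and -0.28 at 9 h. All 6 h and all 9 h arrays lay above the 0.5 h arrays, but the differences of 0.34 and 0.37 did not pass (adjusted p = 0.175 and 0.0874). Tap1 was called nowhere, and its largest spread within a time was 0.67, against 0.33 between the means of the times.

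**Figure D2:**
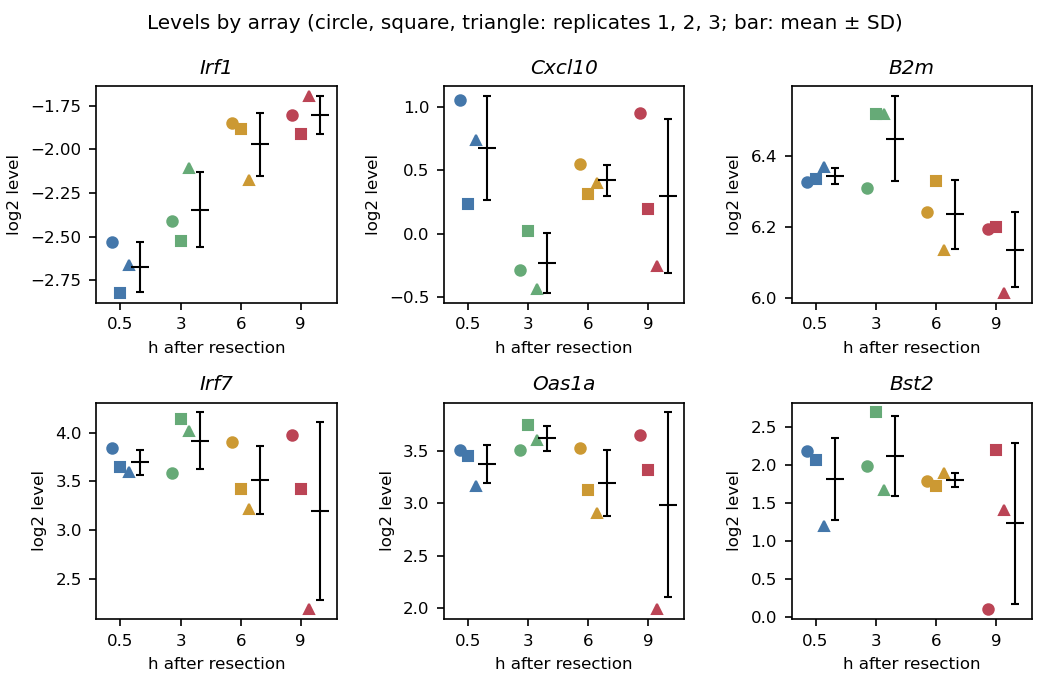
Log2 level of 6 interferon response genes on each of the 12 arrays by hours after nerve resection, relative to the array's 75th percentile; circles, squares and triangles are replicates 1, 2 and 3, and the bar is the mean ± SD. The 9 h arrays of Irf1 lie above all 0.5 h arrays, and those of Irf7 and Oas1a spread from 3.98 to 2.19 and from 3.66 to 1.99.

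None of the 6 nucleic acid sensors and their partners was called in any comparison in the main fit, with all arrays and no block. Dhx58, a helicase that modulates the RNA sensors, had log2 levels of -1.57, -1.73 and -2.94 at 9 h, against -1.5, -1.14 and -1.33 at 3 h. These groups did not overlap, but the difference of -0.76 carried an SE of 0.32 (adjusted p = 0.115). With median scaling it was -0.96 and was called (limma adjusted p = 0.0465). With the slide as a random block it was also called (adjusted p = 0.0113). The other Dhx58 probe differed by -0.17 at 9 h relative to 3 h at the scaling used, and its arrays of these times overlapped. All 6 had negative differences at 6 h relative to 3 h (-0.49 to -0.07) and at 9 h relative to 3 h (-0.76 to -0.13), none of which passed. The others were Ddx58, which encodes RIG-I, and Ifih1, which encodes MDA5, both detectors of viral RNA, the Z-nucleic acid sensor Zbp1, the RNA-activated kinase Eif2ak2 and the ubiquitin ligase Trim25.

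None of the 13 antiviral effectors was called in the main fit. At 9 h relative to 0.5 h their differences ran from -0.58 (Bst2) to 0.33 (Adar, an RNA-editing enzyme), with a median of -0.24, and at 6 h relative to 0.5 h from -0.69 (Gbp2) to 0.12 (Samhd1, which breaks down nucleotides), with a median of -0.18. Gbp2, a GTPase that acts on pathogen vacuoles, had log2 levels of 2.77, 2.61 and 2.52 at 6 h, against 3.62, 3.07 and 3.27 at 0.5 h. The 2 times did not overlap, and the difference of -0.69 (SE 0.21) missed the threshold (adjusted p = 0.0578). It did not pass with normexp or with quantile, median or cyclic loess scaling. Nor did it pass with the mean of probes, a common detection floor, the replicate block or the compared times alone. With single arrays left out it passed only without 9 h replicate 1 (limma adjusted p = 0.0425) or 9 h replicate 3 (adjusted p = 0.0233). It passed with no filter on dim probes (adjusted p = 0.0395) and with another variance model (adjusted p = 0.0485). It also passed with only probes well above background on all arrays (adjusted p = 0.0434) and with the slide as a random block (adjusted p = 0.00768). That block also called Gbp2 lower at 3 h relative to 0.5 h (-0.49, adjusted p = 0.0130). It called Adar higher at 9 h relative to 0.5 h, and Bst2, Ifitm3 and Oas1a lower at 9 h relative to 3 h. At 6 h relative to 0.5 h it called 9071 of all genes, against 3963 without it. No slide held arrays of different times, so calls under that block add no support.

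The 4 other induced genes, Ifi44, Ifi35, Parp14 (an ADP-ribosyltransferase) and Herc6 (a ubiquitin ligase family member that attaches Isg15 in mouse), were not called either. Their differences were all negative at 6 h relative to 3 h (-0.35 to -0.15) and at 9 h relative to 3 h (-0.28 to -0.17). Over all 33 genes, arrays of the 2 times did not overlap for 6 at 3 h relative to 0.5 h, 3 at 6 h relative to 0.5 h, 3 at 9 h relative to 0.5 h, 4 at 6 h relative to 3 h, 0 at 9 h relative to 6 h and 3 at 9 h relative to 3 h. Over all genes this held for 40.7%, 37.1%, 48.7%, 35%, 44.2% and 40% in the same order of comparisons.

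The values of these genes spread widely between arrays of the same time. The SD over the 3 arrays had a median of 0.22, 0.18, 0.25 and 0.52 over the 33 genes at 0.5, 3, 6 and 9 h, against 0.12, 0.13, 0.11 and 0.12 over all genes. The SD was above the all-gene median for 28, 25, 29 and 30 of the 33. For 31 of the 33 (93.9%) the largest range within a time exceeded the range of the 4 time means, as it did for 51.8% of all genes; the exceptions were Irf1 and B2m. No test was made of these counts, since the genes vary together and are not independent.

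**Figure D3:**
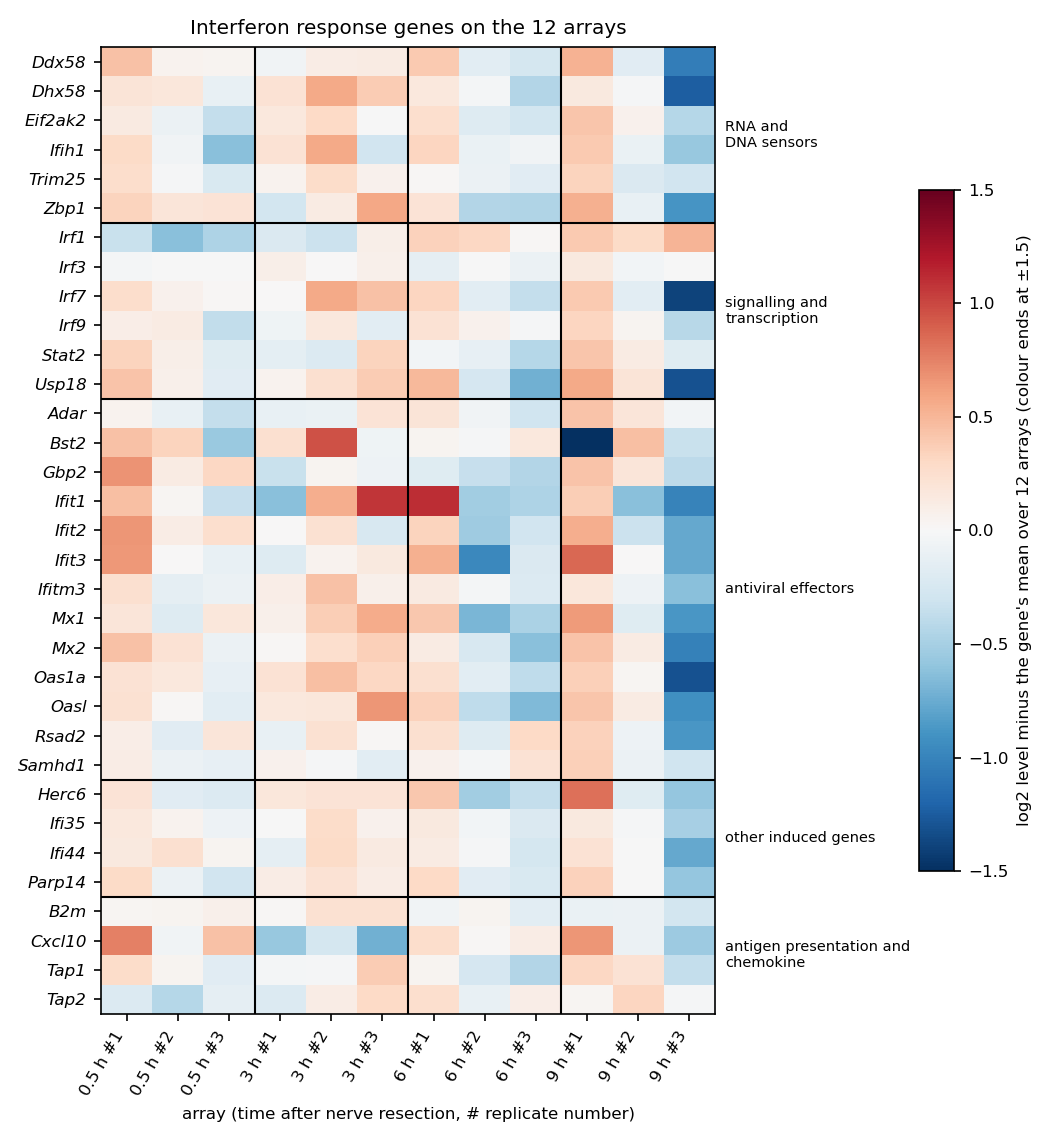
Log2 level of the 33 interferon response genes on the 12 arrays, each as its difference from the gene's own mean over the 12 arrays, in rows by role and columns by time and replicate number. The column of 9 h replicate 3 is low for most genes and that of 9 h replicate 1 is high, with Irf1 and Bst2 as exceptions; Bst2 on 9 h replicate 1 lies beyond the end of the colour scale.

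Within a time the genes shared their high and low arrays. At 9 h, replicate 3 was the lowest of the 3 arrays for 30 of the 33 genes (90.9%, all but Irf1, Irf3 and Bst2) and replicate 1 the highest for 29 (87.9%). Over all genes these shares were 25.9% and 33.8%. At 6 h replicate 1 was the highest for 28 (84.8%, all genes 37.6%) and replicate 3 the lowest for 21 (63.6%, all genes 34.4%). Replicate 1 is the 6 h array on a slide of its own, so slide and array cannot be told apart there. At 0.5 h replicate 1 was the highest for 27 (81.8%, all genes 33.3%) and replicate 3 the lowest for 22 (66.7%, all genes 33.7%). At 3 h replicate 1 was the lowest for 21 (63.6%, all genes 22.7%), and replicates 2 and 3 were each the highest for 16 and 15. The labels state no order or pairing of replicate numbers between times. Replicate 1 was the highest array for most of these genes at 0.5, 6 and 9 h but not at 3 h. Whether the numbers pair arrays was not tested on these genes.

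**Figure D4:**
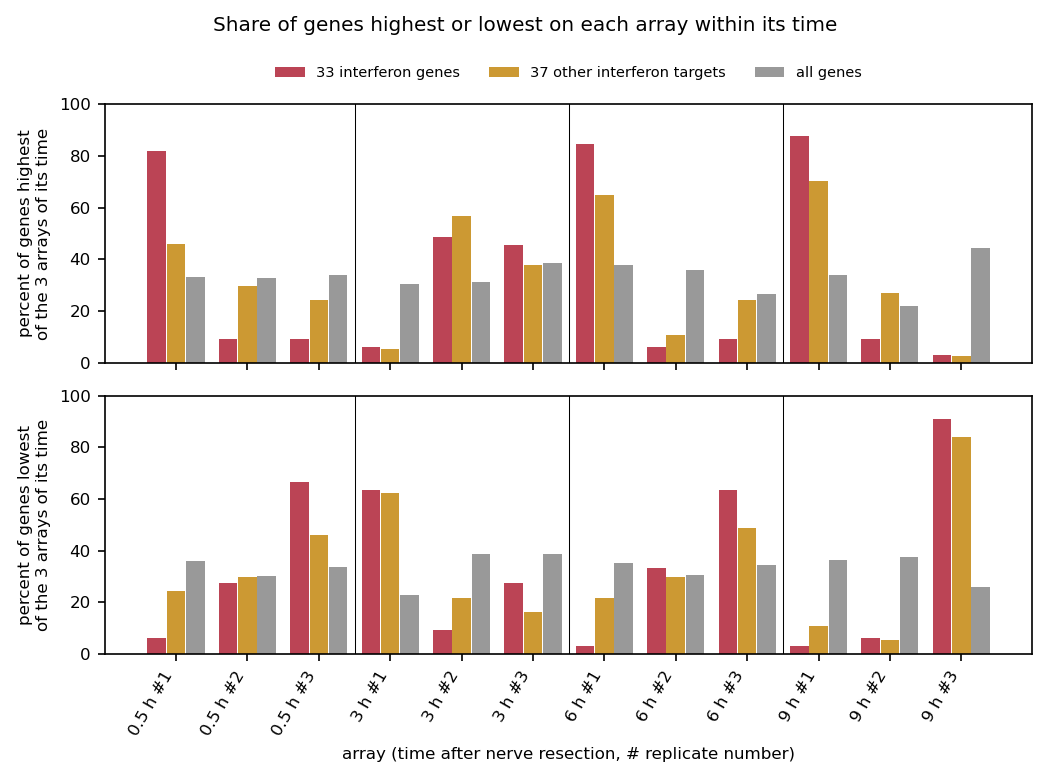
Percent of genes that were highest (upper panel) or lowest (lower panel) on each array among the 3 arrays of its time, for the 33 interferon response genes, 37 other interferon targets and all genes. The bars of the interferon genes reach 87.9% highest on 9 h replicate 1 and 90.9% lowest on 9 h replicate 3, where those of all genes stand at 33.8% and 25.9%.

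The 9 h arrays show the size of this spread. Oas1a, which makes the 2-5A signal that activates RNase L, had log2 levels of 3.66, 3.32 and 1.99 on replicates 1, 2 and 3, a 3.17-fold difference between replicates 1 and 3. Usp18 differed 3.69-fold between them, Irf7 3.46-fold and Ifit3, an RNA-binding partner of Ifit1, 3.10-fold. Replicate 3 was the low array in each.

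The neighbouring genes of the Ifit cluster on chromosome 1, which encode proteins that bind foreign RNA, kept 1 order of arrays at 9 h. Ifit1 (probe at chr1:238610083-238610142, rn4) had log2 levels of -1.95, -2.94 and -3.31 on 9 h replicates 1, 2 and 3, and Ifit2 (chr1:238565078-238565137) had 0.81, -0.06 and -0.50. Ifit3 (chr1:238574983-238575042) had -2.84, -3.69 and -4.47. The linked GTPases Mx1 (chr11:37439631-37439690) and Mx2 (chr11:37568920-37570815) had -0.66, -1.48 and -2.17, and 1.08, 0.78 and -0.36. Replicate 1 was highest and replicate 3 lowest in each of these 5 genes, as in most of the interferon response genes at 9 h. At 3 h replicate 3 was highest for Ifit1 (-1.25) and Ifit3 (-3.56) but lowest for Ifit2 (0.02). Such neighbours are related in sequence, and whether their probes cross-hybridise was not tested.

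Among the sensors, Ddx58 had log2 levels of 0.97, 0.27 and -0.59 on 9 h replicates 1, 2 and 3, and Zbp1 had -1.86, -2.52 and -3.29. In all, 15 of the 33 genes differed more than 2-fold between 9 h replicates 1 and 3 in that direction (median 1.94-fold), against 3.01% of all genes (median 0.979-fold). Among those that differed little were Irf3 (1.11-fold), B2m (1.13-fold) and Tap2 (1.04-fold). Bst2, the membrane protein that tethers budding virus, ran the other way, with 0.11, 2.20 and 1.41, so replicate 1 was its low array. Its other probe was lowest on the same array. The count of genes lowest on 9 h replicate 3 was 28 to 31 under the 4 other background corrections and scalings.

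The sign of the 9 h medians rested on single arrays. Without 9 h replicate 3 the median difference of the 33 genes was 0.09 at 9 h relative to 0.5 h (23 positive, 10 negative), 0.19 at 9 h relative to 6 h (30 positive, 3 negative) and 0.07 at 9 h relative to 3 h (20 positive, 13 negative). The medians of all genes were then 0.09, 0.10 and 0.08. Without 9 h replicate 1 the medians were -0.35, -0.26 and -0.44. Without 9 h replicate 3, Gbp2 was called higher at 9 h relative to 6 h (0.63, limma adjusted p = 0.0332), and without 9 h replicate 1, Ifit2 was called lower at 9 h relative to 0.5 h (-0.89, adjusted p = 0.0378) and Irf7 lower at 9 h relative to 3 h (-1.11, adjusted p = 0.0465). Single arrays also moved the other medians. Without 0.5 h replicate 3 the median at 3 h relative to 0.5 h was 0.03, and without 0.5 h replicate 1 it was 0.23. Without 6 h replicate 1 the median at 6 h relative to 0.5 h was -0.32, and without 6 h replicate 3 it was -0.04. At 6 h relative to 3 h the median ranged from -0.31 (without 6 h replicate 1) to -0.12 (without 6 h replicate 3).

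Markers of other cell types did not follow the same arrays throughout. The 14 skeletal muscle markers, RNA of a tissue outside the ganglion, were all lowest on 9 h replicate 3, as were all 5 measured adipocyte markers. On 9 h replicate 1, the array on which 29 interferon genes were highest, 13 of the 14 muscle markers and all 5 adipocyte markers were highest. On 6 h replicate 1, the array on which 28 interferon genes were highest, all 14 muscle and all 5 adipocyte markers were lowest, as they were on 3 h replicate 3. Muscle levels summed over the list, in units of the array's 75th percentile, ran from 61.4 to 148 at 0.5 h, 73.9 to 352 at 3 h, 79.2 to 623 at 6 h and 88.6 to 267 at 9 h. On no array did any of the 14 drop to background. Their part in the interferon result was not tested.

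Of the 11 measured macrophage markers, all were lowest on 3 h replicate 1, as were 21 interferon genes. On 6 h replicate 1, where interferon genes were highest, 10 of the 11 were lowest, and on 9 h replicate 1, likewise high in interferon genes, 7 were. Their summed level ran from 65.1 to 84.2 at 0.5 h, 48.4 to 72.7 at 3 h, 70.6 to 83.9 at 6 h and 52.4 to 65.9 at 9 h. Of the 11, 10 were well above background on every 0.5 h array and 11 on every later one. Neutrophil markers stood out on 6 h replicate 3, where 8 of 10 were highest and the sum reached 20.1, against 4.03 at the lowest of the 6 h arrays. On 9 h replicate 3, 1 of 14 sensory neuron markers, 2 of 8 satellite glia markers, 3 of 6 Schwann cell markers, 4 of 11 macrophage markers, 5 of 10 neutrophil markers, 1 of 12 lymphocyte markers, 1 of 8 endothelial markers and 1 of 3 red blood cell markers were lowest. The part of these cells in the interferon result was not tested.

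Other genes of the pathway were taken from lists by role. Of 9 ligand genes listed, 5 were on the array; Ifng, Ifna1 and Ifnk were not well above background on any array. Ifnb1, a type I interferon made early in most cell types, had log2 levels of -5.76, -5.68 and -5.34 at 9 h, against -7.57, -6.86 and -7.35 at 6 h. It was well above background on all 9 h arrays, 2 of the 6 h arrays, 1 of the 3 h arrays and none at 0.5 h. Ifnb1 rose at 9 h relative to 6 h by 1.67 on the log2 scale (SE 0.22, limma adjusted p = 0.000353), and at 9 h relative to 3 h by 1.56 (SE 0.22, adjusted p = 0.000917), with no overlap of arrays. These sizes are approximate, since part of the 6 h and 3 h arrays gave signals not well above background. Against 0.5 h no fold is given, because the 9 h signal lay below the lowest signal that was well above background there.

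Ifna4, an interferon alpha, was well above background on all arrays, with log2 levels of -2.53, -2.53 and -2.61 at 0.5 h, -3.12, -3.23 and -3.23 at 3 h, -2.85, -2.62 and -2.19 at 6 h, and -3.36, -3.28 and -3.29 at 9 h. The 3 h and 9 h arrays lay below all others. Ifna4 fell at 9 h relative to 0.5 h by 0.75 (SE 0.13, adjusted p = 0.00274) and at 3 h relative to 0.5 h by 0.63 (SE 0.13, adjusted p = 0.00900). Whether its probe tells Ifna4 from the other alpha interferons was not tested.

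Of 5 measured receptors and kinases, 3 rose at 3 h relative to 0.5 h (Ifnar1, the type I receptor chain, by 0.37, Ifngr1, the gamma receptor chain, by 0.29, and the kinase Jak2 by 0.26), none was called at 6 h relative to 0.5 h, and at 9 h relative to 0.5 h Jak2 rose by 0.26 and Jak1 fell by 0.20. At 9 h relative to 3 h Ifngr1 fell by 0.31 and Jak1 by 0.28. Over all genes 9.69% were called higher at 3 h relative to 0.5 h, 22.7% higher and 10.7% lower at 9 h relative to 0.5 h, and 5.87% lower at 9 h relative to 3 h.

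Of 10 measured genes that lead to interferon production, 3 were called higher and 1 lower at 3 h relative to 0.5 h. At 6 h, 2 were called higher and 1 lower, and at 9 h, 3 higher and 0 lower. Among the 3 at 9 h is Ikbke, which was not well above background at 0.5 h. Its 9 h mean was -5.30. The lowest levels well above background on the 0.5 h arrays were higher (-4.75, -5.07 and -4.71), so a rise from 0.5 h cannot be told. The shares of all genes called higher and lower were 9.69% and 13% at 3 h, 4.07% and 9.31% at 6 h, and 22.7% and 10.7% at 9 h. Myd88, the adaptor of most Toll-like receptors, had log2 levels of -2.44, -2.45 and -2.55 at 0.5 h, -2.17, -2.20 and -1.86 at 3 h, -1.71, -1.65 and -1.73 at 6 h, and -2.02, -1.65 and -1.91 at 9 h, so that every later array lay above every 0.5 h array. It rose by 0.40, 0.78 and 0.62 at 3, 6 and 9 h relative to 0.5 h (SE 0.11, adjusted p = 0.0285, 0.00364 and 0.00272). Tlr9, the sensor of unmethylated DNA, fell by 0.92 at 6 h relative to 0.5 h and rose by 0.91 at 9 h relative to 0.5 h (SE 0.16, adjusted p = 0.00725 and 0.00254). Tlr7, the sensor of single-stranded RNA, rose by 0.85 at 3 h relative to 0.5 h (SE 0.21, adjusted p = 0.0195). Ikbke, a kinase that activates Irf3 and Irf7, rose by 0.61 at 9 h relative to 3 h (SE 0.19, adjusted p = 0.0427).

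**Figure D5:**
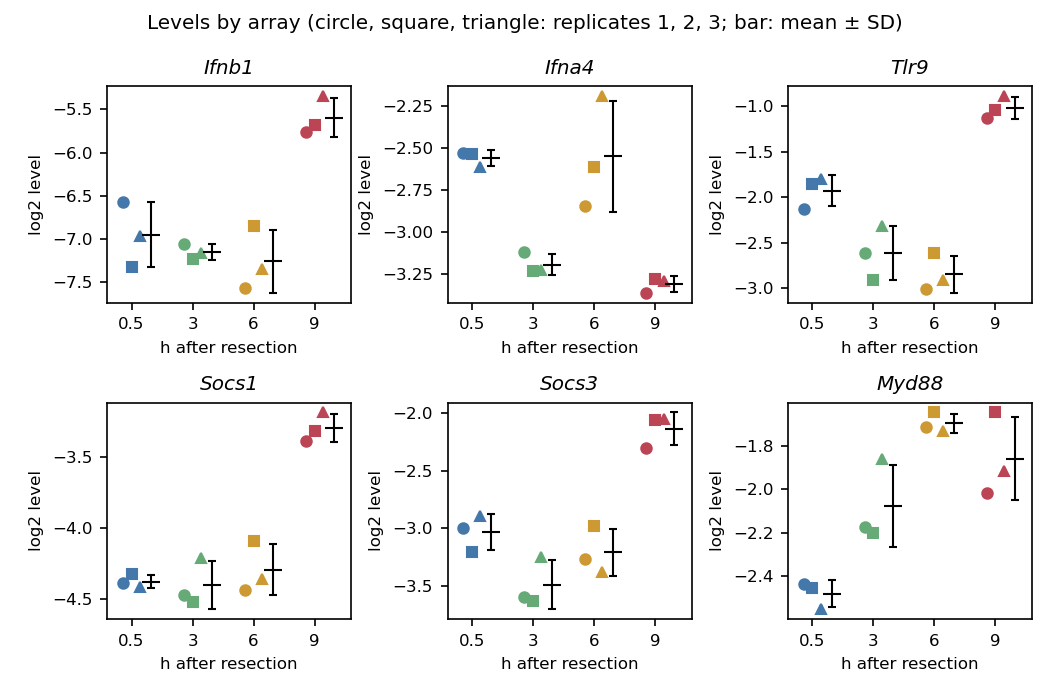
Log2 level of 6 genes of the interferon pathway outside the list on each of the 12 arrays by hours after nerve resection, relative to the array's 75th percentile; circles, squares and triangles are replicates 1, 2 and 3, and the bar is the mean ± SD. Ifnb1, Socs1 and Socs3 are highest on the 9 h arrays, and every later array of Myd88 lies above those of 0.5 h.

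Of 7 measured brakes on interferon signalling, 1 fell at 3 h relative to 0.5 h, where 13% of all genes were called lower. At 9 h, 2 rose and 1 fell relative to 0.5 h, 2 rose relative to 6 h and 3 rose relative to 3 h. Among all genes 22.7%, 19.2% and 17.7% were called higher at 9 h relative to 0.5, 6 and 3 h, and 10.7% lower at 9 h relative to 0.5 h. Socs1, which inhibits Jak kinases and is induced by interferon gamma, had log2 levels of -3.38, -3.31 and -3.18 at 9 h, against -4.43, -4.09 and -4.35 at 6 h. It rose at 9 h relative to 6 h by 1.00, with arrays that did not overlap (SE 0.11, adjusted p = 0.000118). Socs3, a related inhibitor that the interleukin-6 family induces, had -2.30, -2.06 and -2.05 at 9 h, against -3.26, -2.98 and -3.38 at 6 h. It rose by 1.07, or 2.10-fold (SE 0.14, adjusted p = 0.000360). Every 9 h array lay above every array of the other times for both genes. Ptpn2, a phosphatase of Jak and Stat proteins, rose at 9 h relative to 3 h by 0.31, and Irf2, which competes with Irf1 for DNA, fell at 9 h relative to 0.5 h by 0.42 (adjusted p = 0.0220 and 0.0328).

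Of 49 other interferon targets listed, 37 were measured. Relative to 0.5 h, 1 was called higher and 1 lower at 3 h, 0 at 6 h, and 2 higher at 9 h. Relative to 3 h, 1 was called higher and 1 lower at 6 h and likewise at 9 h. At 9 h relative to 6 h 0 passed. The share of all genes called was 22.7%, 13.4% and 33.4% at 3, 6 and 9 h relative to 0.5 h, 10.4% and 23.5% at 6 and 9 h relative to 3 h, and 25.1% at 9 h relative to 6 h. Those with the smallest adjusted p were Ciita, the activator of MHC class II (higher at 9 h relative to 3 h by 0.83, adjusted p = 0.00243), the nuclease Trex1 (higher at 3 h relative to 0.5 h by 0.39, adjusted p = 0.00669), the nuclear body protein Pml and the exonuclease Isg20 (lower at 9 h relative to 3 h by 0.44, adjusted p = 0.0364). Pml was called higher at 9 h relative to 0.5 h (limma adjusted p = 0.00840), where it was not well above background at 0.5 h, so no fold is given. Ciita was not well above background at 0.5 h either, and it is the gene called lower at 3 h relative to 0.5 h. The means of Pml at 9 h (-5.12) and Ciita at 3 h (-6.19) lay below the lowest level well above background on each 0.5 h array. Whether Pml rose or Ciita fell from 0.5 h cannot be told.

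These 37 genes also shared the spread within times. On 9 h replicate 3, 31 of the 37 were lowest, and on 9 h replicate 1, 26 were highest. Between those arrays 6 differed more than 2-fold, among them Gbp4 (2.82-fold), Igtp (2.67-fold) and Oas1b. No fold is given for Oas1b, whose log2 level on 9 h replicate 3 was -7.74. The lowest level well above background on that array was -6.87. On 6 h replicate 1, 24 were highest, and on 3 h replicate 1, 23 were lowest. At 0.5 h the order was weaker, with 17 highest on replicate 1 and 17 lowest on replicate 3. On 9 h replicate 3, 1 of 5 receptors and kinases, 4 of 10 genes that lead to interferon production and 0 of 7 brakes were lowest, and 6 of the 7 brakes were highest (85.7%, all genes 44.3%).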

How the data were processed

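RNA from rat dorsal root ganglia was hybridised to 12 Agilent 1-colour arrays, 3 per time. The deposited intensity values per spot are the scanner software's background-subtracted signals (Agilent Feature Extraction 10.5.1.1, per the file headers), and a table for the whole series, also deposited, held identical intensity values (largest difference 0). The sources used here do not state any scaling between arrays by the authors.

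The log2 of each signal was taken and the array's 75th percentile subtracted. Controls and spots that the scanner software had marked as outliers were dropped, and spots of 1 probe were averaged. A probe was kept if any of the 4 times had it well above background on its 3 arrays (34836 of 41012), and the brightest kept probe on average stood for each gene name, which gave 29622 genes. Group means of all 12 arrays were fitted without covariates by lmFit and eBayes (limma 3.58.1, R 4.3.3), p-values were adjusted by Benjamini-Hochberg over all genes in every comparison, and the call was an adjusted p under 0.05. The fit was tested on simulated data.

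The 37 listed genes, the other pathway lists and the marker lists were chosen with earlier results of these data known. Values by sample are given for members called where the arrays did not overlap, and other members were named after their values were seen. Each pathway list is given by its counts and by up to 4 called genes with the smallest adjusted p and by the ligands. A result that the rule would also name is not reported here.

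Alternatives were normexp background correction (offset 50), scaling by quantiles, medians or cyclic loess, other probe filters, the mean of a gene's probes, a common detection floor, another variance model, fits of the compared times alone, the replicate number or the slide as a block, and each array left out. The fit without the 0.5 h arrays was added after the data had been seen, as was the count of members lowest on 1 array under other scalings. Over all genes, same-numbered arrays of 2 times deviated together little (correlation across genes of -0.13 to 0.22, over 0.1 in 3 of 18 pairs), so the number was not taken as a pairing. That correlation was not computed over the interferon genes alone. Promoter sequences are those of RefSeq (GRCr8), matched by symbol or accession. Probe coordinates are those of the files, on rn4.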

Additional observations from a re-analysis of the deposited data

How the results depend on the processing

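The number of interferon genes called was small, so single calls moved it. With normexp background correction 0 were called at 3, 6 and 9 h relative to 0.5 h and at 9 h relative to 3 h, and that correction also left few genes of the whole array called (1 at 6 h relative to 0.5 h, against 3963). With the slide as a random block (correlation -0.255) the counts were 4, 2 and 4 at 3, 6 and 9 h relative to 0.5 h. They were 3 at 6 h relative to 3 h and 8 at 9 h relative to 3 h. Of all 29622 genes that block called 13844, 9071 and 16878 at 3, 6 and 9 h relative to 0.5 h. It called 7928 at 6 h relative to 3 h and 13805 at 9 h relative to 3 h. Without the block 6731, 3963, 9882, 3075 and 6971 genes were called in the same order. A negative correlation makes the standard errors of differences between slides smaller. No slide held arrays of different times, so the counts under this block add no support. At 3 h relative to 0.5 h the count of interferon genes called was 2 with quantile scaling. It was 0 with the mean of a gene's probes, with a common detection floor or with the compared times alone. At 6 h relative to 0.5 h it was 2 with no filter on dim probes, with probes well above background on all arrays, or with another variance model, which also gave 2 at 9 h relative to 0.5 h. Median scaling gave 2 at 9 h relative to 0.5 h and 1 at 9 h relative to 6 h. The compared times alone gave 1 at 6 h relative to 3 h (Cxcl10). At 9 h relative to 3 h quantile scaling, cyclic loess scaling, the mean of probes and the compared times alone each gave 1, and median scaling gave 3 (B2m, Dhx58 and Irf3, all lower, without Irf1). At 3 h relative to 0.5 h the 1 gene called with median scaling was Irf1, not Cxcl10. The cause of the changes under the other settings was not tested. With each array left out in turn, the counts ranged over 0 to 1 at 3 h, 1 to 2 at 6 h and 1 to 2 at 9 h relative to 0.5 h, 0 to 1 at 6 h relative to 3 h, 0 to 1 at 9 h relative to 6 h and 0 to 3 at 9 h relative to 3 h. Fitted without the 0.5 h arrays, an alternative added after the data had been seen, the counts were 0 at 6 h relative to 3 h, 0 at 9 h relative to 6 h and 2 at 9 h relative to 3 h. The replicate block changed no call of these genes: 1, 1 and 1 were called at 3, 6 and 9 h relative to 0.5 h, 0 at 6 h relative to 3 h and at 9 h relative to 6 h, and 2 at 9 h relative to 3 h. No called interferon gene changed sign under any alternative run.

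Median scaling moved the median of all genes by -0.22 at 9 h relative to 6 h and by -0.20 at 9 h relative to 3 h, and normexp moved it by 0.30 at 9 h relative to 3 h. The share of calls that were higher at 9 h than at 6 h was 76.4% of all called genes, and 34.9% with median scaling. The series-wide value table was not run as an alternative, since it holds the same values. All 33 genes were well above background on all 12 arrays, and each time had 3 arrays. What limited the number of calls was not tested.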

Other observations

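Of the 33 genes, 11 had more than 1 probe, with 14 probes beside those used. Of these 14, 13 were lowest on 9 h replicate 3, and the exception was the other Bst2 probe, which was lowest on replicate 1 like the Bst2 probe used. Between times the probes of a gene differed more. Eif2ak2 differed by 0.12 at 9 h relative to 0.5 h with the probe used and by -0.59 with its other probe, and Dhx58 by -0.45 and 0.04. No explanation of these values was tested.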
